A study of Mus musculus with 12 samples.

Results

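The potassium channel genes described here are the protein-coding mouse genes whose symbol begins with Kcn, followed by letters and a number. Of 52550 genes in the table of deposited counts, 92 carry such a symbol, and 78 had at least 10 counts in 3 or more of the 12 libraries. These 78 members comprise 37 voltage-gated subunit genes, 8 genes of calcium- or sodium-activated channels, 12 inward rectifier genes, 9 two-pore domain genes and 12 genes of auxiliary subunits. The 14 genes below the minimum were Kcna10, Kcne1, Kcne2, Kcnh5, Kcnj1, Kcnj14, Kcnj16, Kcnk9, Kcnk12, Kcnk15, Kcnk16, Kcnk18, Kcnmb3 and Kcnv2. The libraries come from wild-type (WT) mouse material in 4 groups of 3, and no age, sex or strain is given in the labels. Primary cells were isolated from the muscle layers of the intestine and cultured for 28 days. The M scaffold group grew in M medium, named as differentiation medium, on an electrospun gelatin scaffold. The M plate group grew in the same medium on a well plate. M medium was Advanced DMEM/Ham's F-12 with N2, B27 without vitamin A, N-acetylcysteine, HEPES, GlutaMAX, 100 ng/mL Noggin (a BMP antagonist), 1 μg/mL R-spondin1 (which potentiates Wnt signalling), 10 μM Y27632 (a kinase inhibitor) and the ABAM additive. The P plate group grew on a well plate in P medium, named as proliferation medium, which was DMEM with 10% FBS and ABAM. The reference was intact strips of intestinal muscle, which the series uses as positive control. The strips' labels also say Day 28 and name cultured primary cells as source, although their titles call them muscle strips. The cells were not sorted, so each library holds RNA of several cell types.

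Potassium channels let potassium leave the cell along its gradient and so pull the membrane towards rest. In gut muscle they hold smooth muscle cells below the threshold for calcium entry, end each action potential and set the size of slow waves, while in enteric neurons they shape firing. Pore-forming subunits assemble into tetramers or, for the two-pore domain family, into dimers, and auxiliary subunits change their gating and their transport to the membrane.

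Gene counts per library ranged from 21396485 to 116643512, and the members took between 0.0326% (P plate 1) and 0.225% (strips 3) of them. Levels below are CPM, which are counts relative to library size after scaling by the trimmed mean of M values, and means are given ± SD of 3 libraries. A difference is a log2 fold change given by edgeR (quasi-likelihood test, 17700 genes), with Benjamini-Hochberg adjusted p. A gene is called at an adjusted p under 0.05. For a difference, the value after ± is the size of the fold change divided by the square root of the test's F statistic. It restates that statistic and is not a standard error estimated by the fit. The test covered 76 of the 78 members, since Kcnh4 and Kcnk7 did not pass its filter on low counts. The 10 smooth muscle markers summed to between 5017 and 14443 CPM in M scaffold and 3832 and 6585 CPM in M plate libraries. In P plate they summed to between 5869 and 11548 CPM and in strips to between 40831 and 43342 CPM. RNA of these markers was thus present in all groups at unequal levels, without showing which cells held it. P plate 1 stood apart from its group: its 6 macrophage markers summed to 16561 CPM, against 3079 and 1970 CPM in the other 2 P plate libraries, and its 4 mesothelium markers to 307 CPM, against 3366 and 2679 CPM. M scaffold 3 held 207 CPM of the 8 endothelium markers, against 1562 and 1007 CPM in the other M scaffold libraries.

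The members' summed level was highest in strips and lowest in P plate, with the M medium cultures between. It was 1034 ± 154 CPM in M scaffold, 809 ± 81.7 CPM in M plate, 583 ± 256 CPM in P plate and 1888 ± 162 CPM in strips. Each strips library lay above each culture library, whereas P plate 2 lay within the range of M plate. The highest mean was in M scaffold for 15 members, in M plate for 4, in P plate for 8 and in strips for 51. Over all tested genes, the highest mean fell in these groups for 11.8%, 16.9%, 31.5% and 39.8% in the same order. For 34 members (43.6%) the mean was lower in M scaffold than in strips, lower again in M plate and lowest in P plate, an order found in 12.9% of the tested genes. All 3 libraries of a group held at least 10 counts of 68 members in M scaffold, 66 in M plate, 38 in P plate and 71 in strips. No P plate library held 10 counts of 25 members, and Kcns2 and Kcnv1, a pair of electrically silent voltage-gated subunits, had no count in any P plate library.

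Per kilobase of exon, the channel genes that lead differed between groups. The gene with the highest mean CPM per kb was Kcnj8 in M scaffold at 95.8 ± 18.5 and in strips at 87 ± 3.88. In M plate it was Kcnc4, a rapidly inactivating A-type subunit, at 34.5 ± 2.91, followed by Kcnj8 at 24 ± 3.66 and Kcnab1 at 17.1 ± 4.49 CPM per kb. In P plate Kcnc4 stood first at 37.9 ± 48 CPM per kb, with an SD larger than its mean, before Kcnab1 at 17.4 ± 13.7. In strips the next genes after Kcnj8 were Kcnip2 at 31.4 ± 5.64, Kcnh2 at 30.6 ± 6.26, Kcne4 at 26.2 ± 2.59 and Kcnk3 at 17.5 ± 3.97 CPM per kb. Kcnip2, Kcnh2 and Kcne4 did not differ from each other there beyond their spread.

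**Figure D1:**
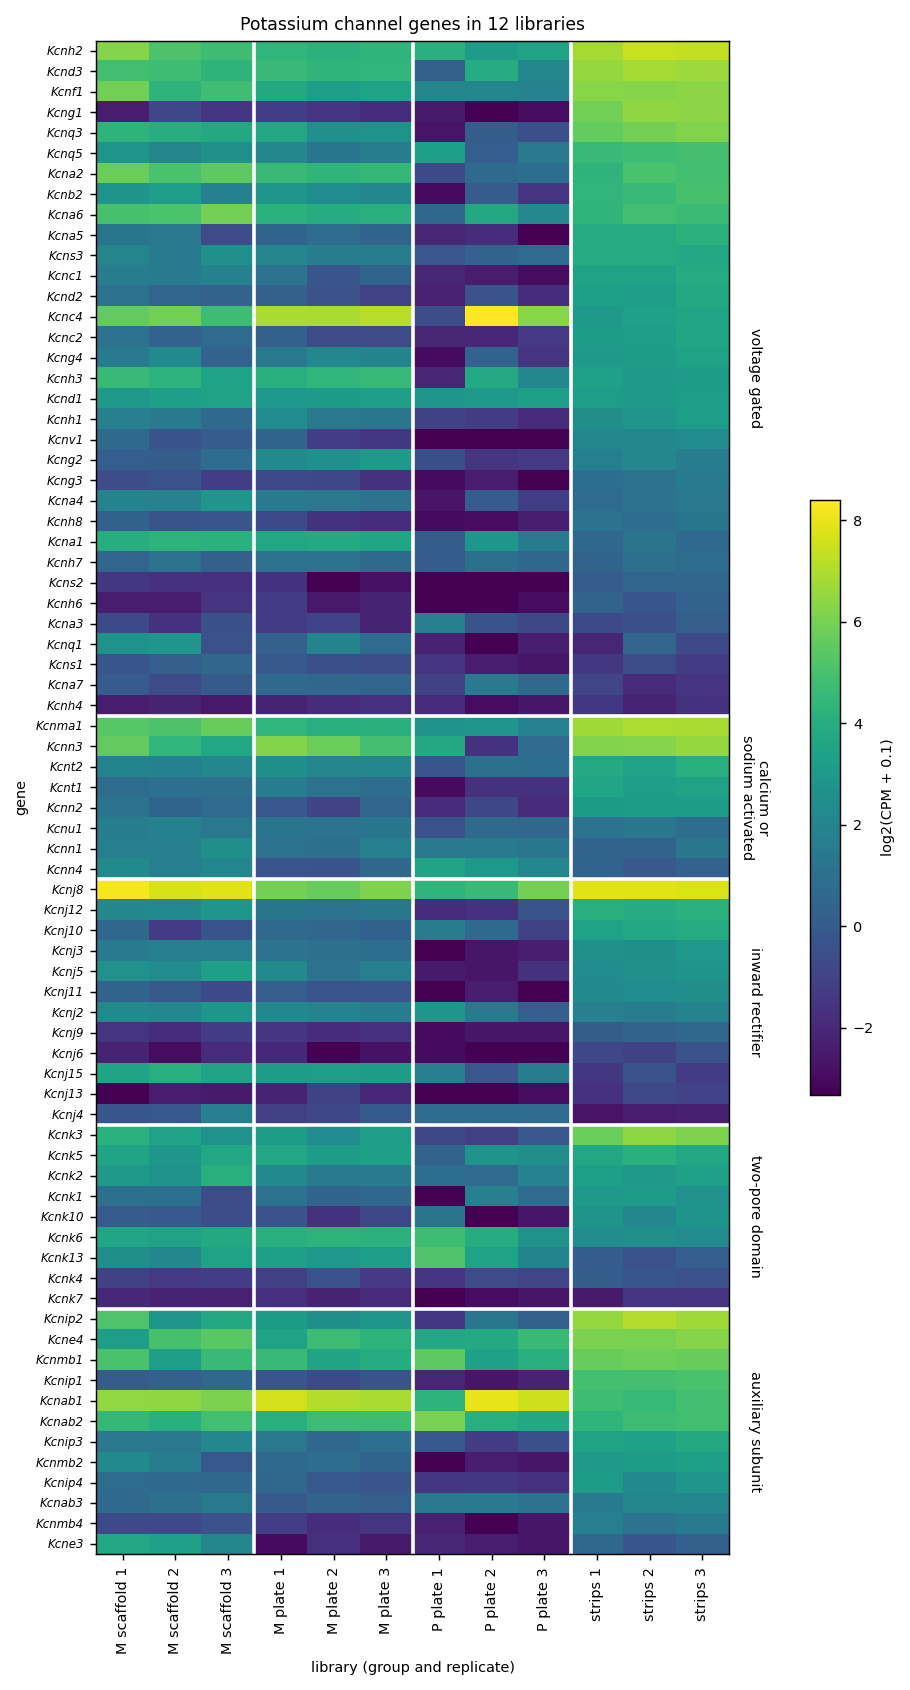
Level of 74 of the 78 members (rows, by class and within it by the mean in strips) in each of the 12 libraries (columns, in the order M scaffold, M plate, P plate, strips), coloured by log2(CPM + 0.1) with bright colours for high levels. The strips columns are the brightest in most rows and the P plate columns the darkest, and a minority of rows, such as Kcnj15 and Kcnk13, is darkest in strips.

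M plate against P plate compares the media on the same substrate. Members of every class were called higher in M medium, with a single one in the two-pore domain class. Of 76 tested members, 41 were called higher and 4 lower in M plate than in P plate, against 14.3% and 10.6% of all tested genes (24.9% in either direction). The median log2 difference was 1.70 over the tested members (1.68 with the 2 members without P plate counts at their bound) and -0.004 over all tested genes. By class, the calls were 22 higher and 2 lower of 36 voltage-gated genes, 5 and 1 of 8 calcium- or sodium-activated, 7 and 0 of 12 inward rectifier, 1 and 0 of 8 two-pore domain and 6 and 1 of 12 auxiliary genes. Libraries did not overlap for 47 members on the higher and 5 on the lower side, while 41.9% of all tested genes did not overlap in either direction.

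Among the voltage-gated genes, Kcna2, a delayed rectifier subunit best known from axons, had 23.7, 20.1 and 22.3 CPM in M plate, against 0.52, 1.51 and 1.79 CPM in P plate (4.12 ± 0.40, adjusted p = 8.21e-05). Of the other tested Kcna genes, Kcna1 rose by 1.89 ± 0.51, Kcna4 by 2.40 ± 0.65 and Kcna5, an oxygen- and voltage-sensitive subunit of muscle, by 3.68 ± 0.73 (adjusted p = 0.0228, 0.023 and 0.00474). Kcna6 and Kcna7 were not called, at 1.36 ± 0.59 and -0.16 ± 0.55 (adjusted p = 0.12 and 0.86), and Kcna3 was called lower. Kcnb2, a delayed rectifier subunit, rose by 3.81 ± 0.72 (adjusted p = 0.00383). Kcnq5, a subunit of M-type channels, was not called: it had 4.18, 2.26 and 3 CPM in M plate, against 9.63, 1.05 and 2.49 CPM in P plate, with P plate 1 highest (-0.49, adjusted p = 0.601, and 0.84, adjusted p = 0.132, without P plate 1). Kcnh2, whose channel contributes to the resting potential of gut muscle, had 19.9 ± 1.34 CPM in M plate, against 12.4 ± 4.25 CPM in P plate (adjusted p = 0.209). The silent subunit gene Kcnv1 had 0 counts in all P plate libraries and was at least 18.5-fold higher in M plate, with the floor of 3 counts taken over the P plate group.

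Kcnma1 (chr14:23289431-24014491 in GRCm38, minus strand), the pore of the large-conductance calcium-activated (BK) channel that relaxes smooth muscle, had 20.8, 16.1 and 17.1 CPM in M plate, against 6.24, 7.35 and 3.54 CPM in P plate. The groups did not overlap, and the log2 difference was 1.65 ± 0.24 (adjusted p = 0.000838). Its smooth muscle beta subunit gene, Kcnmb1 (chr11:33963013-33973641, plus strand), had 24.6, 11.3 and 15 CPM in M plate, against 43.2, 10.4 and 16.4 CPM in P plate, which overlap (-0.46 ± 0.55, adjusted p = 0.573). The neuronal beta subunit gene Kcnmb4 rose by 2.03 ± 0.61 and Kcnmb2, an inactivating beta subunit, by 4.83 ± 0.79 (adjusted p = 0.0355 and 0.00167). Kcnn3, the small-conductance channel of PDGFRA-positive cells of gut muscle, had 74.6, 54.6 and 30.9 CPM in M plate, against 13.9, 0.215 and 1.59 CPM in P plate (3.34 ± 1.03, adjusted p = 0.0391). Kcnn4, the intermediate-conductance channel known from immune cells, epithelia and proliferating fibroblasts, went the other way, with 0.745, 0.736 and 1.42 CPM in M plate, against 11.3, 7.53 and 4.11 CPM in P plate (-2.97 ± 0.40, adjusted p = 0.000525). Also called lower in M plate were Kcna3, a voltage-gated subunit of lymphocytes and macrophages, at -2.40 ± 0.75 and the beta subunit gene Kcnab3 at -1.19 ± 0.27 (adjusted p = 0.0394 and 0.0104).

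Of the inward rectifier genes, the G protein-gated pair Kcnj3 and Kcnj5, whose products form a heteromeric channel opened by muscarinic receptors in the heart, rose most among those with more than 3 P plate counts. Kcnj5 had 4.67, 2.03 and 3.1 CPM in M plate, against 0.0821, 0.0615 and 0.223 CPM in P plate (4.73 ± 0.51, adjusted p = 0.00014), and Kcnj3 rose by 5.20 ± 0.50 (adjusted p = 7.34e-05). Kcnj11, one of the pair of genes for the pore of ATP-sensitive channels, had 3 counts over the whole P plate group. Kcnj8, the other, had 61.5, 51.7 and 70.3 CPM in M plate, against 20.4, 24.7 and 62.1 CPM in P plate, with P plate 3 inside the M plate range, and was not called (0.78 ± 0.35, adjusted p = 0.131). The only two-pore domain gene called was Kcnk3, an acid-sensitive leak channel of smooth muscle and neurons, at 8.88, 5.02 and 9 CPM in M plate, against 0.465, 0.369 and 0.797 CPM in P plate (3.81 ± 0.46, adjusted p = 0.000267). All 4 Kcnip genes, which encode calcium-binding partners of the Kcnd channels, were called higher, Kcnip1 by 2.57 ± 0.30, Kcnip2 by 2.51 ± 0.68, Kcnip3 by 1.63 ± 0.38 and Kcnip4 by 1.92 ± 0.33 (adjusted p = 0.000206, 0.0225, 0.0109 and 0.00218). Of the Kcnd genes themselves none passed the test: Kcnd1 differed by 0.03 ± 0.18, Kcnd2 by 1.14 ± 0.59 and Kcnd3 by 1.67 ± 0.65 (adjusted p = 0.911, 0.184 and 0.0842).

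P plate libraries differed widely in some members. Kcnc4 had 120.4, 120.3 and 139 CPM in M plate, against 0.575, 337 and 79 CPM in P plate, so that P plate 1 lay far below M plate and P plate 2 far above it (-0.13 ± 1.15, adjusted p = 0.949). Kcnab1, a beta subunit that speeds inactivation, had 191, 130.2 and 119.6 CPM in M plate, against 19, 246 and 183 CPM in P plate, again lowest in P plate 1. Kcnk13, a halothane-inhibited leak channel known from microglia, had 9.71, 7.56 and 8.98 CPM in M plate, against 35.6, 10.9 and 3.79 CPM in P plate, highest in P plate 1. The differences without P plate 1 were -0.72 for Kcnc4, -0.54 for Kcnab1 and 0.25 for Kcnk13, none of them called (adjusted p = 0.298, 0.0903 and 0.726). Without P plate 1 and M scaffold 3, M plate had 43 members called higher and 4 lower, against 18.3% and 14.8% of all tested genes. With each library left out in turn, 34 of the 45 calls held; Kcnn3 lost its call without P plate 3, any single M plate library, M scaffold 2 or any single strips library (adjusted p up to 0.111), Kcna3 without P plate 1, any single M plate library, M scaffold 1 or any single strips library (up to 0.17), and Kcna1 without P plate 3, M plate 1 or M plate 2 (up to 0.0816). Kcnip2 lost it without P plate 3 or M plate 1 (up to 0.073) and Kcnmb4 without P plate 3, any single M plate library or strips 3 (up to 0.111). Kcnh6, Kcnj13 and Kcnn2 also lost it without P plate 1. Kcna4 lost its call without P plate 3, M plate 1 or M plate 2 (adjusted p up to 0.0785).

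**Figure D2:**
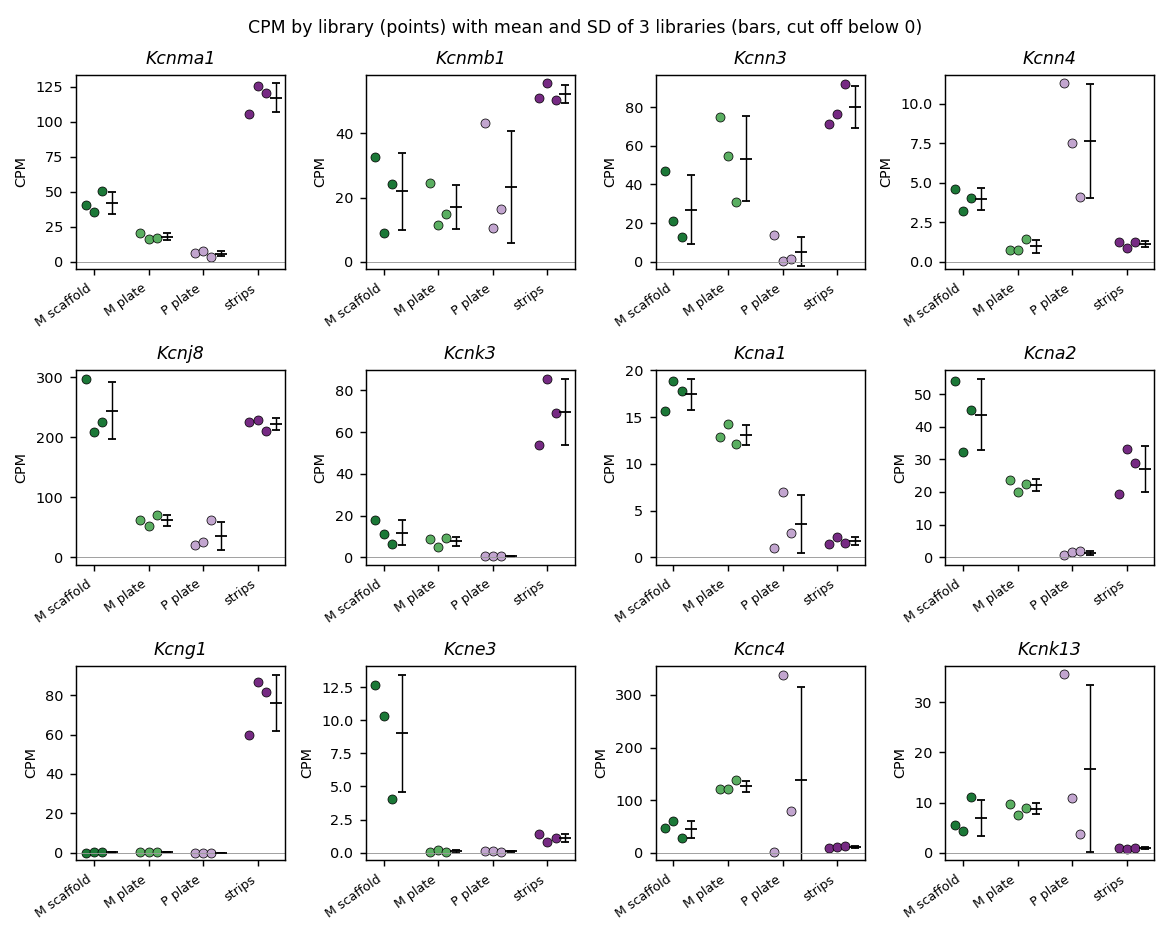
CPM of selected members in each library (points) with group mean and SD of 3 libraries (bars, cut off below 0), in the order M scaffold, M plate, P plate, strips. Kcnj8 in M scaffold overlaps strips, Kcnma1 is highest in strips, lower in M scaffold, lower again in M plate and lowest in P plate, and the 3 P plate values of Kcnc4 lie far apart.

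M scaffold against M plate compares the substrates in the same medium. Few members were called: 5 higher (Kcne3, Kcnf1, Kcnj8, Kcnma1 and Kcnn4) and 1 lower (Kcng2), against 1.53% and 1.64% of all tested genes (3.18% in either direction). The median log2 difference was 0.62 over the 76 tested members and 0.01 over all tested genes. Libraries did not overlap for 27 members on the higher and 6 on the lower side, against 33.3% of all tested genes in either direction. With the replicate number as a block within these 6 libraries, 11 members were called higher and 4 lower, the main 6 among them. The same fit called 4.81% of all genes it tested higher and 5.69% lower. Added by the block were Kcna2 (0.97), Kcna6 (1.31), Kcnh8 (1.59), Kcnj12 (1.26), Kcnq3 (1.08) and Kcnq5 (0.83) on the higher side and Kcnab1 (-0.82), Kcnc4 (-1.56) and Kcnn3 (-1.10) on the lower side. With the block in all 12 libraries, 4 were called higher and 1 lower, against 1.25% and 0.955% of all tested genes. Kcnma1 lost its call there (adjusted p = 0.0511). DESeq2 called 19 higher and 1 lower, the main 6 among them, against 6.5% and 4.95% of the genes to which it gave an adjusted p.

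Kcnj8 (chr6:142564837-142571614, minus strand), the pore of the ATP-sensitive channel of vascular smooth muscle and pericytes, had 298, 209 and 226 CPM in M scaffold and 61.5, 51.7 and 70.3 CPM in M plate. Each scaffold library was above each plate library, and the log2 difference was 2.00 ± 0.36 (adjusted p = 0.0255). Kcnma1 had 40.3, 35.2 and 50.4 CPM in M scaffold and 20.8, 16.1 and 17.1 CPM in M plate (1.23 ± 0.23, adjusted p = 0.029), again without overlap. Kcne3, an auxiliary subunit that keeps Kcnq1 channels open in epithelia, had 12.6, 10.3 and 4.03 CPM in M scaffold and 0.0287, 0.203 and 0.0786 CPM in M plate (6.41 ± 0.63, adjusted p = 0.00359). Its usual partner gene Kcnq1 had 6.33, 6.83 and 0.649 CPM in M scaffold and 1.12, 3.63 and 1.64 CPM in M plate and was not called. In both genes the lowest scaffold value was in M scaffold 3. Kcnn4 had 4.58, 3.23 and 4.05 CPM in M scaffold and 0.745, 0.736 and 1.42 CPM in M plate (2.01 ± 0.39, adjusted p = 0.0299). Kcnf1, a silent subunit that modifies other voltage-gated subunits, had 59.1, 19.6 and 28.1 CPM in M scaffold and 13.6, 9.14 and 11.2 CPM in M plate (1.65 ± 0.33, adjusted p = 0.0324), with M scaffold 1 highest. Kcng2, a silent subunit of the same kind, had 1.04, 0.994 and 1.68 CPM in M scaffold and 4.73, 5.71 and 7.97 CPM in M plate (-2.29 ± 0.36, adjusted p = 0.015).

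The 3 genes below were called higher in M scaffold than in M plate. They were chosen as free of annotated exons just before their start, and likeness between their promoters was not measured. Each line gives the 250 bases before the annotated start from RefSeq (GRCm38.p6), at chr6:142571615-142571864 (minus strand) for Kcnj8, chr12:17176889-17177138 (minus strand) for Kcnf1 and chr7:24370013-24370262 (plus strand) for Kcnn4. Capitals mark a GC box.
Kcnj8: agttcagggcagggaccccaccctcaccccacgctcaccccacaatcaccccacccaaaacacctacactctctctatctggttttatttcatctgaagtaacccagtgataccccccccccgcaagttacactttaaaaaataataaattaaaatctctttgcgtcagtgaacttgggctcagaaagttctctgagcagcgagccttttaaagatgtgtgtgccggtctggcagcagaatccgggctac
Kcnf1: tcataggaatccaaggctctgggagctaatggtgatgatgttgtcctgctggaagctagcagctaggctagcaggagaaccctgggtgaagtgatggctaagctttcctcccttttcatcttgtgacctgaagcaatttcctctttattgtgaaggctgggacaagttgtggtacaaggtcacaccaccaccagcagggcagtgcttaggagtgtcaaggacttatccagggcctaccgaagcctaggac
Kcnn4: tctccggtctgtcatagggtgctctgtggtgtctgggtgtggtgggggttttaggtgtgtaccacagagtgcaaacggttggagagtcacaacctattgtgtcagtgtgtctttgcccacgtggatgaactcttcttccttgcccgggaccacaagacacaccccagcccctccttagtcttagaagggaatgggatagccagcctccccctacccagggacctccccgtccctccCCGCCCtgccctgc
Searched on both strands over these 250 bases were the CArG box, bound by serum response factor in muscle genes, the GC box GGGCGG and the TATA motif TATAAA. The GC box was found in Kcnn4 alone among the 3, and neither of the other 2 motifs was in any of them. Kcnma1 and Kcne3 were also called higher but are not printed. The Kcnma1 promoter held 3 GC boxes, and the Kcne3 promoters held 0 and 2. RefSeq promoters were at hand for 57 members (78 promoters). A CArG box was in 0 of these 78 and in 1.47% of all 32851 promoters, a GC box in 46.2% and 32.7%, and the TATA motif in 2.56% and 12.4%. The median GC content was 59% over the member promoters and 52.4% over all.

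The scaffold calls depended on single libraries. Only Kcne3 remained called without each library in turn. Kcnj8 lost its call without M plate 1, 2 or 3 or M scaffold 1 (adjusted p up to 0.131), Kcnma1 without any single M plate library, M scaffold 1, M scaffold 3 or strips 3 (up to 0.139), Kcnn4 without the same 6 libraries (up to 0.139), Kcnf1 without any single M plate library, M scaffold 3 or any single strips library (up to 0.151), and Kcng2 without M plate 2 or 3 (up to 0.0715). All 12 libraries share 1 estimate of the spread, so a library of another group bears on these calls. Without P plate 1, 15 members were called higher and 2 lower, against 5.51% and 4.94% of all tested genes. Without P plate 1 and M scaffold 3 together, 9 were called higher and 1 lower, against 4.02% and 3.5% of all tested genes.

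Each culture was also compared with strips, the native tissue. The 3 comparisons share the strips libraries, so their calls are not independent of each other. M scaffold had 10 members higher and 45 lower than strips, against 24.5% and 27.6% of all tested genes (52.1% in either direction). M plate had 8 higher and 46 lower, against 26.5% and 28.4% of all tested genes (54.9% in either direction). P plate had 8 higher and 55 lower, against 30.5% and 32.7% of all tested genes (63.1% in either direction). The median log2 difference of the 76 tested members was -1.54 in M scaffold, -1.89 in M plate and -3.56 in P plate, while that of all tested genes was -0.02, -0.01 and -0.03. Of the members, 40 were lower in all 3 cultures and 4 were higher in all 3, and 30 were both higher in M plate than in P plate and lower in M plate than in strips. Of all tested genes, 20.6%, 17.7% and 5.97% showed these 3 patterns in the same order. Culture and strips libraries did not overlap for 17 members on the higher and 51 on the lower side in M scaffold, 10 and 52 in M plate and 6 and 59 in P plate, against 65.3%, 73.2% and 67.8% of all tested genes in either direction. In bulk RNA, fewer cells of a type and less RNA per cell cannot be told apart.

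**Figure D3:**
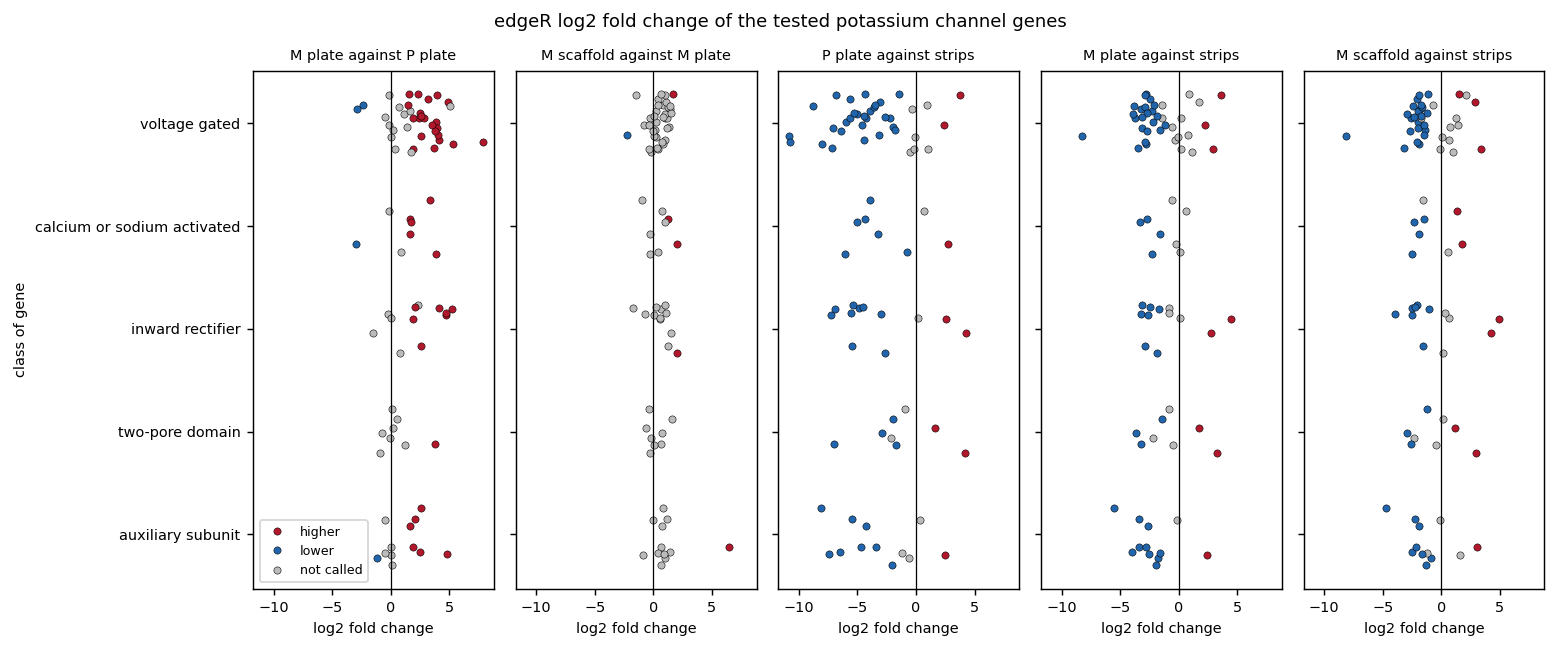
Log2 fold change (horizontal axis) of the 76 tested members in each of the 5 comparisons (panels), by class (vertical axis, with random spread within a class), in red where called higher, blue where called lower and grey where not called at an adjusted p under 0.05. In the comparisons with strips most points lie below 0, furthest in P plate; points of Kcnv1 and Kcns2 that involve P plate depend on the prior count of the fit, since that group held no counts of them.

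The largest fitted gap to strips in each culture was that of Kcng1 (chr2:168260117-168281736, minus strand), a silent subunit that assembles with other voltage-gated subunits. It had 0.0922, 0.466 and 0.253 CPM in M scaffold, 0.344, 0.254 and 0.189 CPM in M plate cultures, 0.0821, 0 and 0.0319 CPM in P plate and 59.6, 86.8 and 81.7 CPM in strips. The log2 differences to strips were -8.14 ± 0.48 in M scaffold, -8.21 ± 0.49 in M plate and -10.81 ± 0.59 in P plate (adjusted p = 6.88e-06, 3.91e-06 and 5.63e-07). Kcnip1 had 0.952, 1.12 and 1.41 CPM in M scaffold, 0.774, 0.508 and 0.708 CPM in M plate cultures, 0.137, 0.0615 and 0.128 CPM in P plate and 30.1, 30.9 and 32.8 CPM in strips, so that no culture library came near the strips. Its differences to strips were -4.73 ± 0.24, -5.55 ± 0.25 and -8.12 ± 0.30 in the 3 cultures in that order (adjusted p = 3.63e-06, 1.51e-06 and 2.59e-07). Kcnk3 had 11.8 ± 5.91 CPM in M scaffold, 7.63 ± 2.26 in M plate, 0.544 ± 0.225 in P plate and 69.5 ± 15.8 in strips. Its differences to strips were -2.57 ± 0.40, -3.18 ± 0.41 and -7.00 ± 0.51, all called (adjusted p = 0.000505, 0.000133 and 2.22e-06). Kcnv1 was at least 156-fold lower in P plate than in strips and Kcns2, another silent subunit, at least 42.2-fold lower, with the floor of 3 counts over the P plate group.

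Kcnma1, Kcne4 and Kcnh2 were called lower than strips in all 3 cultures, and Kcnmb1 in M plate. Kcnma1 had 106, 126 and 120.4 CPM in strips, and the difference was -1.48 ± 0.23 in M scaffold, -2.71 ± 0.25 in M plate and -4.36 ± 0.27 in P plate (adjusted p = 0.000572, 2.11e-05 and 9.3e-07). Kcnmb1 had 32.7, 9.04 and 24.1 CPM in M scaffold, 24.6, 11.3 and 15 CPM in M plate cultures, 43.2, 10.4 and 16.4 CPM in P plate and 51.1, 55.6 and 50.4 CPM in strips. It was called lower in M plate, at -1.63 ± 0.56 (adjusted p = 0.029), and did not pass in M scaffold (adjusted p = 0.0779) or P plate (0.086). Without P plate 1 it was called lower in both, at -1.27 in M scaffold and -2.01 in P plate (adjusted p = 0.0241 and 0.00552). The M plate call of Kcnmb1 ended without M plate 2, M plate 3 or any single strips library (adjusted p up to 0.0976). Kcne4, an accessory subunit gene, had 9.34, 32.1 and 42.7 CPM in M scaffold, 10.8, 25.8 and 18.7 CPM in M plate cultures, 12.6, 14.3 and 23.9 CPM in P plate and 66.8, 64.7 and 77.5 CPM in strips. It was called lower in all 3 cultures, at -1.31 ± 0.49, -1.92 ± 0.50 and -2.04 ± 0.50 (adjusted p = 0.043, 0.00762 and 0.0046). The M scaffold call of Kcne4 ended without P plate 2, M plate 3, M scaffold 1, M scaffold 2 or any single strips library (adjusted p up to 0.0969). Kcnh2 was called lower in all 3 cultures, at -1.68 ± 0.37 in M scaffold, -2.90 ± 0.39 in M plate and -3.58 ± 0.40 in P plate (adjusted p = 0.00383, 0.000182 and 3.4e-05). Kcnd3, a pore of the A-type current that Kcnip proteins regulate, had 25.4 ± 4.92 CPM in M scaffold, 21.7 ± 2.03 in M plate, 6.8 ± 7.42 in P plate and 103 ± 10.4 in strips.

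Not all members were called lower than strips in M medium. M scaffold had 10 of the 76 tested members higher and 21 not called, and M plate had 8 higher and 22 not called. Kcnj8 had 298, 209 and 226 CPM in M scaffold and 225, 229 and 210.5 CPM in strips, ranges that overlap (0.14 ± 0.35, adjusted p = 0.757). It was lower than strips in M plate, at -1.86 ± 0.36, and in P plate, at -2.63 ± 0.37 (adjusted p = 0.00145 and 0.000137). Kcna1 was called above strips in both M medium cultures, with 15.6, 18.9 and 17.8 CPM in M scaffold, 12.9, 14.3 and 12.1 CPM in M plate cultures, 1.01, 7.01 and 2.61 CPM in P plate and 1.45, 2.21 and 1.52 CPM in strips. The differences were 3.35 ± 0.55 in M scaffold, 2.94 ± 0.54 in M plate and 1.05 ± 0.52 in P plate (adjusted p = 0.000673, 0.00109 and 0.101), and the P plate difference passed without P plate 1, at 1.47 (adjusted p = 0.0044). Kcna2, its neighbour in axonal channels, was not called in M scaffold (0.69 ± 0.34) or M plate (-0.30 ± 0.34), and lower in P plate, at -4.42 ± 0.41 (adjusted p = 0.113, 0.483 and 8.85e-06). Kcne3 was higher in M scaffold than in strips, at 3.01 ± 0.51, and lower in M plate, at -3.40 ± 0.60, and P plate, at -3.45 ± 0.63 (adjusted p = 0.000828, 0.000899 and 0.00077). Kcnn4 was higher in M scaffold and P plate than in strips, at 1.81 ± 0.39 and 2.76 ± 0.40, and not called in M plate, at -0.21 ± 0.39 (adjusted p = 0.00312, 0.00017 and 0.678).

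The 4 members higher than strips in all cultures were Kcnj15, Kcnj4, Kcnk13 and Kcnk6. Kcnj15, an inward rectifier of kidney and stomach epithelium, had 11.4, 16.2 and 10.8 CPM in M scaffold, 8.51, 9.42 and 8.65 CPM in M plate cultures, 3.37, 0.799 and 3.06 CPM in P plate and 0.274, 0.709 and 0.313 CPM in strips. Kcnk13 had 5.53, 4.26 and 11.1 CPM in M scaffold, 9.71, 7.56 and 8.98 CPM in M plate cultures, 35.6, 10.9 and 3.79 CPM in P plate and 0.958, 0.667 and 1.03 CPM in strips. All culture libraries lay above all strips libraries for both. The differences to strips of Kcnk13 were 2.96 ± 0.70, 3.28 ± 0.71 and 4.21 ± 0.74 in M scaffold, M plate and P plate (adjusted p = 0.00553, 0.00294 and 0.000599), and without P plate 1 the P plate difference was 2.99 (adjusted p = 0.000489). The summed macrophage markers lay between 1513 and 3486 CPM in M scaffold, 2547 and 3474 CPM in M plate libraries, 1970 and 16561 CPM in P plate and 124 and 167 CPM in strips, none of the 6 at 0 in any group, and their part in these results was not tested. Kcnk6, a weak leak channel, had 12.1 ± 1.54 CPM in M scaffold, 18.2 ± 1.2 in M plate, 16.3 ± 10.3 in P plate and 5.35 ± 0.502 in strips. Its call in M scaffold ended without M scaffold 1, M scaffold 3 or any single strips library (adjusted p up to 0.08).

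Kcnab1 and Kcnc4 were called higher in both plate cultures than in strips, although P plate 1 lay below each strips library for both, at 19 CPM of Kcnab1 and 0.575 CPM of Kcnc4. Kcnab1 differed by 2.46 ± 0.66 in M plate and 2.48 ± 0.66 in P plate (adjusted p = 0.00935 and 0.00748), with 27.2, 23.2 and 29.8 CPM in strips. Kcnc4 differed by 3.63 ± 1.29 in M plate and 3.77 ± 1.29 in P plate (adjusted p = 0.0338 and 0.0259), with 8.02, 10.3 and 12.1 CPM in strips. The P plate call of Kcnc4 ended without P plate 2 or any single strips library (adjusted p up to 0.153), and its M plate call without any single M plate or strips library (up to 0.103). With P plate 1 left out, the P plate differences were 2.97 for Kcnab1 and 4.32 for Kcnc4 (adjusted p = 4.01e-06 and 7.3e-05). limma-voom called neither gene in P plate, at 1.81 and 1.13 (adjusted p = 0.0658 and 0.631), nor Kcnc4 in M plate (adjusted p = 0.122). Of all calls against strips, 40 of 55 in M scaffold, 48 of 54 in M plate and 57 of 63 in P plate held without each library in turn. Leaving out P plate 1 ended the calls of Kcnq1 and Kcnu1 in P plate against strips, and 10 members gained a call in M scaffold against strips, among them Kcna2, Kcnab1, Kcnc4 and Kcnn3. Without M scaffold 3, 7 lost a call there: Kcnb2, Kcnd3, Kcnh8, Kcnk4, Kcnk6, Kcnk10 and Kcns2.

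There were 8 members called in no comparison: Kcnab2, Kcnd1, Kcnh3, Kcnh4, Kcnh7, Kcnj2, Kcnk1 and Kcnk7, of which Kcnh4 and Kcnk7 were not tested. Kcnd1, an A-type subunit, varied little, with 7.65, 9.85 and 11 CPM in M scaffold, 7.51, 8.32 and 9.37 CPM in M plate cultures, 7.2, 7.81 and 9.63 CPM in P plate and 9.31, 7.88 and 9.53 CPM in strips. All 4 groups overlapped. Kcnab2, the main neuronal and immune cell beta subunit, had 65.9, 17 and 13.4 CPM in P plate and 20.3, 26.4 and 28.8 CPM in strips, with P plate 1 alone above the strips. Kcnj2, a classical strong inward rectifier, had 7.36, 2.46 and 1.02 CPM in P plate and 3.34, 2.92 and 3.68 CPM in strips, again highest in P plate 1. Without P plate 1 both turned to lower in P plate than in strips, Kcnab2 at -0.77 and Kcnj2 at -0.97 (adjusted p = 0.0354 and 0.0461). The stretch-sensitive leak channel gene Kcnk10 had 0.688, 0.228 and 0.472 CPM in M plate, against 2.16, 0 and 0.0638 CPM in P plate, at -0.71 ± 1.10 with all libraries and at 3.77 without P plate 1 (adjusted p = 0.677 and 0.00791).

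Genes whose products work with these channels were read from a separate list. Of 14 channel partner genes, 11 were tested. M plate had 5 higher and 1 lower than P plate, against 14.3% and 10.6% of all tested genes. M scaffold had 0 called against M plate, against 3.18% of all tested genes in either direction. Against strips, 1 was higher and 7 lower in M scaffold, 0 and 8 in M plate and 0 and 9 in P plate. Of all tested genes, 24.5% were higher and 27.6% lower in M scaffold, 26.5% and 28.4% in M plate and 30.5% and 32.7% in P plate. Abcc9, the sulfonylurea receptor that assembles with the product of Kcnj8, had 309, 209.7 and 203 CPM in M scaffold, 113, 88.8 and 115 CPM in M plate cultures, 11.5, 13.2 and 31.2 CPM in P plate and 212, 291 and 244 CPM in strips. It rose in M plate over P plate by 2.50 ± 0.36 (adjusted p = 0.000714), was not called between M scaffold and M plate (1.19 ± 0.34, adjusted p = 0.0813) and differed from strips by -0.05 ± 0.34 in M scaffold (adjusted p = 0.913). Dpp10, an accessory subunit of Kcnd channels, had 2.4, 1.49 and 1.14 CPM in M scaffold, 1.2, 0.558 and 0.755 CPM in M plate cultures, 0, 0.0615 and 0 CPM in P plate and 43.3, 35.2 and 39.2 CPM in strips. The difference to strips was -4.57 ± 0.42 in M scaffold and -5.56 ± 0.44 in M plate (adjusted p = 3.47e-05 and 1.13e-05). Of 11 genes for calcium entry and release, which feed calcium to the BK and small-conductance channels, 4 were higher and 1 lower in M plate than in P plate, and 0 were called in M scaffold against M plate. Against strips, 1 was higher and 6 lower in M scaffold, 1 and 8 in M plate and 0 and 7 in P plate. The shares of all tested genes given above for the channel partner genes apply to these counts too. Ryr2, a calcium release channel of the sarcoplasmic reticulum, differed from strips by -1.35 ± 0.36 in M scaffold, -2.42 ± 0.37 in M plate and -4.14 ± 0.40 in P plate (adjusted p = 0.00945, 0.000362 and 1.26e-05).

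**Figure D4:**
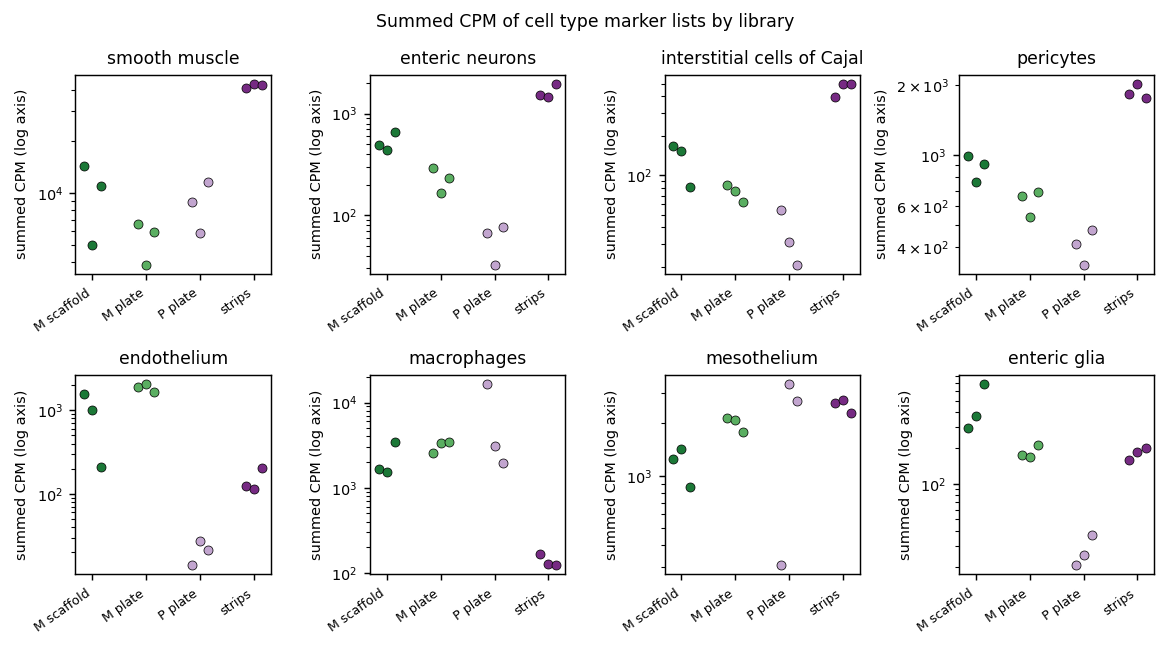
Summed CPM (log axis) of 8 cell type marker lists in each library (points), in the order M scaffold, M plate, P plate, strips. Smooth muscle and enteric neuron markers are highest in strips, macrophage markers are lowest there, and endothelium markers are lowest in P plate.

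The cell type marker lists differed between groups, and not all in the order of the members' summed level. The 10 smooth muscle markers had 0 called higher and 8 lower in M scaffold than in strips, 0 and 10 in M plate and 0 and 8 in P plate. In M plate against P plate 1 of them was higher and 3 were lower. The 10 enteric neuron markers summed to 439 to 656 CPM in M scaffold, 164 to 290 CPM in M plate, 32.4 to 76.5 CPM in P plate and 1448 to 1979 CPM in strips, with Chat at 0 in P plate. In M plate against P plate 8 of these 10 rose, and in M scaffold against M plate 1. The 6 enteric glia markers summed to 292 to 692 CPM in M scaffold, 167 to 211 CPM in M plate, 20.6 to 36.8 CPM in P plate and 157 to 198 CPM in strips. The 6 pericyte markers summed to 765 to 990 CPM in M scaffold, 538 to 690 CPM in M plate, 336 to 477 CPM in P plate and 1760 to 2022 CPM in strips. Their sum hides a split among the 5 that were tested. Against strips, 2 were called higher and 3 lower in M scaffold and in M plate, and 1 higher and 3 lower in P plate. The 4 markers of interstitial cells of Cajal summed to 80.9 to 167 CPM in M scaffold, 62.3 to 83.6 CPM in M plate, 20.7 to 54 CPM in P plate and 397 to 501 CPM in strips. The 8 endothelium markers summed to 207 to 1562 CPM in M scaffold, 1660 to 2068 CPM in M plate, 14 to 27.5 CPM in P plate and 113 to 203 CPM in strips. The 6 markers of PDGFRA cells and fibroblasts summed to 1549 to 3057 CPM in M scaffold and 1501 to 1991 CPM in M plate. They summed to 574 to 1610 CPM in P plate and 1024 to 1032 CPM in strips. Of these 6, 4 were called higher in M plate than in P plate. The 8 epithelium markers summed to 25 to 34.5 CPM in M scaffold, 29.4 to 32.7 CPM in M plate, 9.14 to 94.7 CPM in P plate and 93.5 to 359 CPM in strips. Endothelium and glia markers were higher in M plate than P plate for 8 of 8 and 6 of 6. Of all tested genes, 14.3% were called higher and 10.6% lower in M plate than in P plate, and 1.53% were higher in M scaffold than in M plate. Those lower than strips were 27.6% in M scaffold, 28.4% in M plate and 32.7% in P plate. The part of these lists in the channel results was not tested.

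Some members lie close together in the genome, and some share exon bases with genes outside the members. Kcna5, Kcna1 and Kcna6 lie in a row on chr6, Kcna3 and Kcna2 side by side on chr3, and Kcnj9 and Kcnj10 on chr1. Kcnmb1 lies inside the body of Kcnip1, on the opposite strand and with no shared exon base. Of the 78 members, 28 share exon bases with another gene, and 4 share over 25% of them: Kcna6 (39.6%), Kcnj13 (49.1%), Kcnj3 (31.1%) and Kcnmb4 (31.5%). No source used here gives the strand setting of the counting or its rule for reads in shared bases. Whether such reads were counted for the member, for the other gene or as ambiguous is not known.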

How the data were processed

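The deposited values are raw counts per Ensembl gene, one column per sample, made by the authors with STAR 2.6.0 and the builds GRCm38 and mm10, per the submitters' processing notes. Not given in the sources used here are the counting program, annotation, strand setting and read layout. Total RNA came from RNeasy extraction, and the TruSeq RNA kit v2 gave the libraries, per the labels. The series text names biologically independent replicates and also technical ones, but each sample has 1 column here, and no source used here says how runs were joined.

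Symbols, exon lengths and coordinates came from GENCODE M21 by Ensembl identifier (52403 of 52550 genes). The 5 summary entries name no gene and entered neither library sizes nor tests; reads outside features were 4.2% to 7.87% of reads in genes, outside them or ambiguous. Depth ranged from 21396485 to 116643512 counts, and a count of 0 over a group allows up to 3 counts. This floor reflects counting error alone, as the reads carry no molecular identifiers.

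edgeR 4.0.16 in R 4.3.3 was used on the counts as deposited: filterByExpr (17700 genes kept), TMM scaling (factors 0.893 to 1.15) and the quasi-likelihood F test, two-sided, on all 12 libraries with 1 factor for group (8 residual degrees of freedom). P-values were adjusted by the Benjamini-Hochberg method over all genes tested within each of 5 comparisons. The scripts were tested on simulated data with known changes. Alternatives were DESeq2 1.42.0, limma-voom (limma 3.58.1), other scalings and filters, fits on 6 libraries, replicate blocks and leaving out libraries.

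Same-numbered M scaffold and M plate libraries deviated together from their group means (correlations of 0.196 to 0.304 over genes), so the replicate block is given beside that comparison; the pairing comes from the numbers in the titles and this check alone.

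The genes, the lists and the tests were chosen with earlier results of these data known. Named members were a panel of 41 by known role, the 5 largest rises and falls among called members with at least 1 CPM in the higher group in each comparison, and the 5 highest per kilobase in each group; Kcnip4 and members named for their call alone were added after values were seen. The promoter motifs other than the CArG box were also added then. Some members enter the counts but are not reported here by name.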

Additional observations from a re-analysis of the deposited data

How the results depend on the processing

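The fit on only the 6 libraries compared tested 65 members in M plate against P plate and called 26 higher. Of all genes it tested, 10.6% were called higher. The replicate block within these 6 libraries gave 12 higher and 0 lower there, against 5.77% and 2.19% of all genes it tested. In it, 17 of the 33 named members called with all 12 libraries were tested and lost their call, Kcna5 and Kcnb2 among them. The 17 do not include named members that this fit, with 65 members tested, left out by its filter on low counts. The remainder of the 33 therefore did not all keep their call. In M scaffold against M plate, DESeq2 called 19 members higher, limma-voom 9 and the replicate block within the 6 libraries 11. Of all genes in these fits, 6.5%, 2.59% and 4.81% were called higher in the same order. That block called 4 members lower and the 6-library fit 2, against 5.69% and 3.75% of all genes they tested. Leaving out P plate 1 and M scaffold 3 together, which was chosen after seeing the data, gave 9 higher, against 4.02% of all genes. In P plate against strips the block within 6 libraries gave 3 higher, against 19.9% of all genes. In M scaffold against strips the 6-library fit and the omission of both libraries each gave 16 higher. Of all genes, 26.3% and 27.4% were called higher in these fits. The cause of these changes was not tested. The fits on 6 libraries had fewer residual degrees of freedom and also their own filter on low counts, scaling and estimate of the spread.

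Without single libraries, the number of members called higher ranged from 1 to 15 and lower from 0 to 2 in M scaffold against M plate, with 15 without P plate 1 and 1 without any single M plate library. Of all tested genes, 5.51% were called higher without P plate 1. The share was 0.473%, 0.0385% and 0.132% without M plate 1, 2 and 3. The ranges were 32 to 44 higher and 3 to 5 lower in M plate against P plate, 7 to 16 and 35 to 49 in M scaffold against strips, with 16 without P plate 1, 7 to 10 and 41 to 49 in M plate against strips, and 7 to 9 and 51 to 58 in P plate against strips. Without P plate 1, 27.2% of all tested genes were called higher in M scaffold against strips. Over all single omissions, the shares of all tested genes called higher and lower moved as well. They were 9.99% to 16.4% and 4.46% to 12.2% in M plate against P plate. Against strips they were 18.6% to 27.2% and 23.8% to 31.6% in M scaffold, and 20.6% to 28% and 24.3% to 32.7% in M plate. For P plate they were 25.6% to 30.9% and 30.1% to 34.1%. In M scaffold against M plate the lower share was 0.0605% to 4.94%. Over these fits Kcnk10 ranged from -1.29 to 3.77 in M plate against P plate, Kcnab2 from -0.77 to 0.68 and Kcnj2 from -0.97 to 0.53 in P plate against strips, with the sign turned without P plate 1. Without P plate 1 and M scaffold 3 together they were 3.75, -0.76 and -0.96.

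Upper quartile scaling moved the median of all tested genes by -0.17 in P plate, -0.16 in M plate and -0.14 in M scaffold against strips on the log2 scale. Among the members, only Kcnj2, Kcnab2, Kcnu1, Kcnd1 and Kcnk2 changed the sign of their difference in any of the comparisons under another scaling, and none of these differences was called. Apart from M scaffold against M plate, same-numbered libraries deviated little together (correlations of -0.103 to 0.127, and not every library correlated best with its own number). Whether they shared an isolation is not stated, and these correlations cannot decide it. With the replicate block in all 12 libraries, 5 calls of named members were lost and 4 gained over the 5 comparisons. Groups of 3 libraries and few counts in P plate limit what can be seen of low members.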
